A study of Mus musculus with 24 samples.

Results

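Bone marrow-derived macrophages (BMDM) were stimulated with IL-4 and IL-13 while either the endoplasmic reticulum (ER) or the mitochondrial ATP synthase was under drug stress, and the 2 kinds of stress were compared gene by gene. The comparison used 8 of the 24 RNA-seq libraries, chosen by their library names: the 4 whose names end in Tunica and the 4 whose names end in Oligo, 1 of each from mouse 1, mouse 2, mouse 4 and mouse 5. All 8 cultures were primary macrophages of wild-type mice, grown from marrow with M-CSF, and all received 20 ng/ml IL-4 and 20 ng/ml IL-13 for 24 h. The tunicamycin cultures had 5 μg/ml tunicamycin and the Oligo cultures 1 μM oligomycin, each added 1 h before the cytokines and kept with them. The reference level is the 4 libraries of the same mice with IL-4/IL-13 alone. Each stress was given at a single dose and read at a single time, so a difference between them is between these doses at 24 h.

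The labels disagree on the Oligo libraries. Their library names carry no ISRIB, a small molecule that restores eIF2B activity and so blunts the integrated stress response (ISR), whereas their sample titles, treatment labels and written descriptions add 1 μM ISRIB. The reverse holds for the 4 libraries whose names end in Oli_ISR, which have ISRIB by name and none by title. Groups here follow the library names, no value was used to choose between the readings, and the Oli_ISR libraries are given beside the Oligo libraries for a part of the results that they change. Whether the Oligo cultures contained ISRIB cannot be told from these labels.

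Tunicamycin blocks DPAGT1, the enzyme that starts the lipid-linked sugar chain from which secretory proteins are N-glycosylated, so that unfolded glycoproteins collect in the ER. Their sensors are IRE1 (encoded by *Ern1*), ATF6 and PERK (encoded by *Eif2ak3*), and together they drive the unfolded protein response (UPR): chaperones, glycosylation, export and ER-associated degradation (ERAD). Oligomycin blocks the proton channel of the mitochondrial ATP synthase. Both routes can meet at eIF2α, which PERK phosphorylates in ER stress and the kinase HRI (encoded by *Eif2ak1*) in mitochondrial stress, after which translation of ATF4 rises and ATF4 turns on amino acid synthesis and transport, tRNA charging and *Ddit3* (CHOP). In macrophages IL-4 and IL-13 act through STAT6 to turn on *Arg1*, *Retnla* and *Chil3*.

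The 8 libraries held 17230982 to 20368244 reads counted on genes, and the groups' depths overlapped. Of the 13679 genes tested, 771 were at least 2.5-fold higher (5.64%) and 1177 at least 2.5-fold lower (8.6%) with tunicamycin than in the Oligo libraries at an adjusted *P* under 0.05 (edgeR quasi-likelihood test). Without the minimum fold, 31.4% of genes were higher and 32.1% lower, so passing the test alone sets little apart. The median log2 difference over all genes was -0.02, and 189 genes were at least 8-fold higher and 302 at least 8-fold lower. By contrast, for 3169 genes (23.2%) the whole 95% interval of the difference lay within 1.25-fold either way. The 10 macrophage markers together held 18064 to 19456 CPM (gene counts scaled to a common library size) with tunicamycin and 15985 to 17673 CPM in the Oligo libraries. Single markers diverged, with *Adgre1* (F4/80) at a mean of 6678 against 1277 CPM and *Cd68* at 481 against 1337 CPM. The T cell and erythroid markers had at most 3 counts in each of the 8 libraries, the 10 neutrophil markers summed to 5.24 to 6.43 CPM with tunicamycin and 5.00 to 8.01 CPM in the Oligo libraries, and the 5 stromal markers to 3.57 to 24.6 and 5.60 to 54.9 CPM. IL-4/IL-13 alone held 37.8 to 63.9 CPM of the neutrophil markers, whose members moved apart between the stresses: *Mmp8* was at a mean of 5.75 against 2.71 CPM and *S100a9* at 0.0119 against 1.43 CPM, with *S100a8*, *Ngp* and *Ltf* lower with tunicamycin as well. The 5 B cell markers summed to 2.36 to 3.24 against 0.157 to 0.376 CPM, nearly all of it *Cd79b* in the tunicamycin libraries, while *Ms4a1* (CD20) had at most 1 count in each of the 8 libraries. The part of these cells in the results was not tested.

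**Figure D1:**
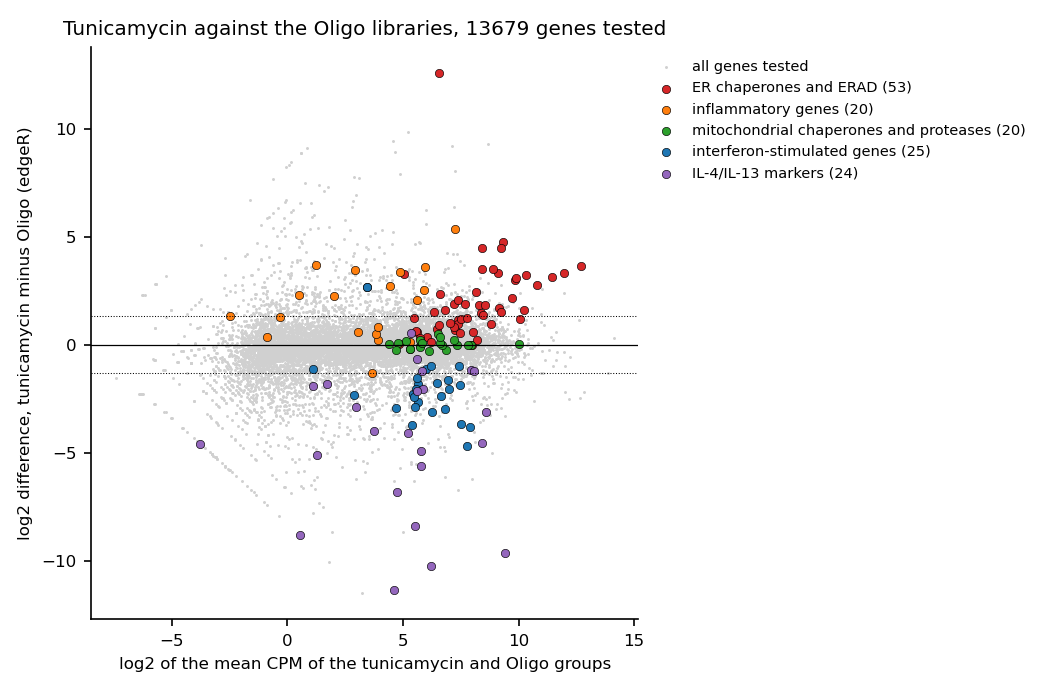
Log2 difference between tunicamycin and the Oligo libraries (y axis, edgeR) against the log2 of the mean CPM of both groups (x axis), with 1 grey point for each gene tested, coloured points for 5 gene lists and dotted lines at 2.5-fold. The ER genes (red) lie almost all above 0, the IL-4/IL-13 markers (purple) and interferon-stimulated genes (blue) almost all below it, and the mitochondrial chaperones and proteases (green) lie along it, while the 2 genes at 0 in all 8 libraries are not drawn.

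The ER genes separated the stresses. Among 30 ER chaperones and folding enzymes, 29 were higher with tunicamycin than in the Oligo libraries and 1 was lower, 21 of them by at least 2.5-fold, with a median log2 difference of 1.86. *Hspa5* encodes BiP, the HSP70 of the ER lumen. It stood at 11562, 12836, 13209 and 11861 CPM in the tunicamycin libraries of mice 1, 2, 4 and 5 and at 904, 978, 1089 and 1017 CPM in their Oligo libraries. The lowest tunicamycin library was thus far above the highest Oligo library, and the Oligo libraries did not pass the test against IL-4/IL-13 alone, at 1073 ± 92.6 CPM (SD, n = 4). The difference was 12.4-fold (log2 3.63 ± 0.07 SE, adjusted *P* = 6.76e-23). *Hspa5* lies at chr2:34661982-34668880 of GRCm39 on the plus strand, and 44.2% of its exon bases are shared with a gene on the other strand (*Rabepk*), whose reads cannot be told apart here because no source used here says whether counting used the strand.

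Several chaperones were not only higher with tunicamycin but lower in the Oligo libraries than with IL-4/IL-13 alone. *Sdf2l1*, a BiP cofactor, was at 1226, 1243, 1220.1 and 1231 CPM with tunicamycin and at 42.9, 45.2, 49.4 and 44.0 CPM in the Oligo libraries, while IL-4/IL-13 alone gave 217 ± 4.66 CPM (SD, n = 4). The 3 groups formed separate levels, with IL-4/IL-13 alone between the stresses. It was 27.1-fold higher with tunicamycin than in the Oligo libraries (log2 4.76 ± 0.09, adjusted *P* = 8.40e-24), having risen 5.67-fold with tunicamycin and fallen 4.77-fold in the Oligo libraries against IL-4/IL-13 alone. *Hsp90b1*, the HSP90 of the ER (GRP94), was at 4725 to 5425 CPM against 538 to 619.8 CPM, and it too lay below IL-4/IL-13 alone in the Oligo libraries (log2 -0.74 ± 0.07, adjusted *P* = 3.58e-10). *Creld2*, a stress-induced ER protein, was 22.0-fold higher with tunicamycin. *Dnajb9*, the BiP cochaperone ERdj4, was 11.2-fold higher, at 606 to 648 against 51.1 to 59.4 CPM. The lone member lower with tunicamycin was *Sil1*, the nucleotide exchange factor of BiP (log2 -0.19 ± 0.07, adjusted *P* = 0.023). This call was lost without mouse 1 (adjusted *P* = 0.194), without mouse 5 (adjusted *P* = 0.32) or with no filter on low counts (adjusted *P* = 0.107). Summed over all 30 members, the list held 42489 to 47456 CPM with tunicamycin, 6082 to 6801 CPM in the Oligo libraries and 7996 to 9187 CPM with IL-4/IL-13 alone. A larger summed level in RNA from a whole culture does not tell more expressing cells from more RNA per cell.

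**Figure D2:**
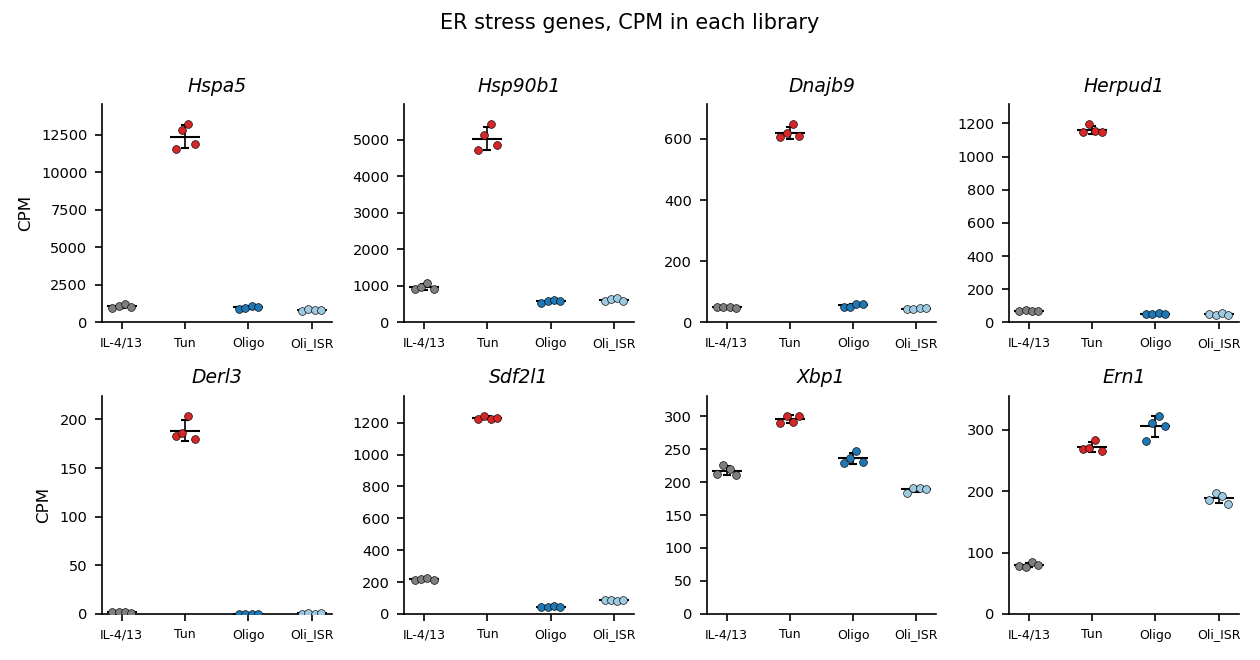
Level of 8 ER stress genes in each library (y axis, CPM, linear from 0) for IL-4/IL-13 alone, tunicamycin (Tun), the Oligo libraries and the Oli_ISR libraries, with 1 point per mouse, a long bar at the group mean and error bars of 1 SD (n = 4). The tunicamycin points of *Hspa5*, *Hsp90b1*, *Dnajb9*, *Herpud1*, *Derl3* and *Sdf2l1* stand far above the 12 others, those of *Xbp1* only slightly, and for *Ern1* they lie beside the Oligo libraries.

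Genes of ERAD, which draws misfolded proteins out of the ER for the proteasome, followed the chaperones: 21 of 23 were higher with tunicamycin, none was lower and 2 did not pass the test. The largest difference was that of *Derl3*, which encodes a derlin of this route and lies at chr10:75729215-75731775 of GRCm39. It was read at 183, 186, 204 and 180.3 CPM with tunicamycin, at 0.0473, 0.0470, 0 and 0 CPM in the Oligo libraries and at 1.54 ± 0.136 CPM (SD, n = 4) with IL-4/IL-13 alone. With only 2 counts over the 4 Oligo libraries, the ratio of 7659 has a 95% counting interval of 2120 to 63248, which covers counting error only. *Herpud1*, a membrane scaffold of the same complex, was at 1148, 1196, 1154 and 1147 CPM against 50.8, 49.5, 57.2 and 49.2 CPM, 22.5-fold apart (log2 4.49 ± 0.08, adjusted *P* = 6.82e-24). All of its tunicamycin libraries lay within a narrow band, and so did its Oligo libraries. Of the members that did not pass, *Fam8a1* had a 95% interval of the log2 difference of -0.11 to 0.18.

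The sensors themselves differed less than the chaperones. Of 9 sensors and processing factors, 7 were higher with tunicamycin and 2 did not pass, and the median log2 difference was 0.53. *Eif2ak3* (PERK) was at 65.5, 61.2, 65.5 and 64.3 CPM with tunicamycin and at 21.9, 20.8, 24.1 and 23.9 CPM in the Oligo libraries (2.83-fold, adjusted *P* = 1.01e-14). The groups did not overlap, and IL-4/IL-13 alone lay between them at 43.7 ± 3.60 CPM (SD, n = 4), so its RNA rose with tunicamycin and fell in the Oligo libraries. *Creb3l2*, an ATF6-related factor of the ER membrane, was 2.30-fold higher with tunicamycin and *Atf6* 1.97-fold higher. *Xbp1*, whose mRNA IRE1 splices, differed by 1.25-fold (log2 0.33 ± 0.05, adjusted *P* = 1.31e-06), a total that does not separate spliced from unspliced mRNA. *Ern1* (IRE1) rose under both stresses, from 79.7 ± 3.49 CPM with IL-4/IL-13 alone to 272 ± 7.57 CPM with tunicamycin and 306 ± 17.2 CPM in the Oligo libraries (SD, n = 4 each). Those last groups overlapped (log2 -0.17 ± 0.07, adjusted *P* = 0.0516), and the sign turned against the Oli_ISR libraries (log2 0.53 ± 0.07, adjusted *P* = 7.70e-07). With the mouse as a replicate block, the difference from the Oligo libraries passed, at log2 -0.17, adjusted *P* = 0.0331.

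Glycosylation and export genes were higher with tunicamycin as well. In the N-glycosylation list 33 of 39 tested members were higher than in the Oligo libraries, 3 were lower and 3 did not pass. *Dpagt1*, the target of the drug, was at 185, 189.9, 186 and 178 CPM with tunicamycin against 64.2, 66.0, 69.2 and 60.7 CPM, with no overlap (2.84-fold, adjusted *P* = 6.18e-18). *Gfpt1*, which commits fructose 6-phosphate to the sugar-nucleotide pathway that feeds glycosylation, was at 405 to 461 against 90.5 to 95.3 CPM (4.75-fold). The gene was not particular to tunicamycin, since it also rose in the Oligo libraries from 34.1 ± 1.17 CPM (SD, n = 4) with IL-4/IL-13 alone (log2 1.44 ± 0.05, adjusted *P* = 2.57e-17). Of 46 translocon and vesicle coat genes 44 were higher with tunicamycin and none was lower, with *Sec24d*, a cargo adaptor of COPII vesicles, 4.32-fold apart.

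Set against IL-4/IL-13 alone, where 38.7% of all genes tested were higher and 37.6% lower with tunicamycin, and 34% higher and 32.2% lower in the Oligo libraries, the ER lists divided. With tunicamycin 30 of 30 chaperones rose (median log2 change 1.88), whereas in the Oligo libraries 11 rose, 13 fell and 6 did not pass (median -0.11). For ERAD the counts were 22 risen and 1 fallen of 23 with tunicamycin (median 1.22) and 12 risen and 5 fallen in the Oligo libraries (median 0.19). Both comparisons share the 4 control libraries, so they are given side by side only. The Oli_ISR libraries gave nearly the same split from tunicamycin as the Oligo libraries did, with 28 of 30 chaperones higher with tunicamycin and 1 lower.

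Of 3 sequence elements searched in the promoters of the lists, 2 were present in unlike shares. They are shown because the ER stress element (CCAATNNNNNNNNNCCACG, bound by ATF6 and NF-Y) and the C/EBP-ATF element (TGATGNAA, bound by ATF4 with C/EBP partners) are the textbook sites of the ER-type and the shared response. In RefSeq windows of the mouse (GRCm38.p6) that run from 250 bases before to 50 bases after each transcription start, an exact ER stress element on either strand was present in 8 of the 25 chaperone genes with a window (32%), in 2 of 18 ERAD genes (11.1%) and in none of the 17 ISR or 14 amino acid genes, against 0.137% of 27025 genes. The C/EBP-ATF element was in 6 of 17 ISR genes (35.3%), 3 of 14 amino acid genes (21.4%), 1 of 25 chaperone genes (4%) and 1 of 18 ERAD genes (5.56%), against 4.51% of all genes. The third, the ACGTG core found in sites of XBP1 and ATF6, was in 52% of the chaperone, 61.1% of the ERAD, 41.2% of the ISR and 42.9% of the amino acid genes, against 21.8% of all genes, and so set the lists less apart. A match is a description of letters and not of binding. The 250 bases before the start of 3 genes of the first kind and 3 of the second are printed 5′ to 3′ on the strand of the gene, with the element in capitals.
*Hspa5* (chr2:34771840-34772089, plus strand): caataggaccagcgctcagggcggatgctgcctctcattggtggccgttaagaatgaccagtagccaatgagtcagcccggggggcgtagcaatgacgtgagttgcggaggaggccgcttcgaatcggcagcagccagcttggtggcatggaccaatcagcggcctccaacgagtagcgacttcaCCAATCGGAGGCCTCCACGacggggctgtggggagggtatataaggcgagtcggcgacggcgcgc
*Hsp90b1* (chr10:86705445-86705694, minus strand): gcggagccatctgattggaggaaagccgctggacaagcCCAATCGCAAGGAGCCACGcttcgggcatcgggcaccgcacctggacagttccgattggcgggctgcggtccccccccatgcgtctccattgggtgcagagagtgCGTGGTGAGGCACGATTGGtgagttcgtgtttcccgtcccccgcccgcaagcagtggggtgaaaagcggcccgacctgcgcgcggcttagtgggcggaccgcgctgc
*Derl3* (chr10:75893148-75893397, plus strand): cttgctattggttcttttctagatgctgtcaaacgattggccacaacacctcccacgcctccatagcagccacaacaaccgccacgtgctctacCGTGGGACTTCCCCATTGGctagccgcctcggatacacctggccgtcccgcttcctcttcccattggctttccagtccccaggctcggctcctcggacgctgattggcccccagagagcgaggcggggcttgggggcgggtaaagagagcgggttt
*Chac1* (chr2:119350992-119351241, plus strand): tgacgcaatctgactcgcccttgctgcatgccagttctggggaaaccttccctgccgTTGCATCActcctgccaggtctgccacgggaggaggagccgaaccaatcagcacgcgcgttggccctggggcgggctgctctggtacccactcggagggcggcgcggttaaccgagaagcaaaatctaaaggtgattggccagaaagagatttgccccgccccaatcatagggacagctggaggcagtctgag
*Nupr1* (chr7:126625471-126625720, minus strand): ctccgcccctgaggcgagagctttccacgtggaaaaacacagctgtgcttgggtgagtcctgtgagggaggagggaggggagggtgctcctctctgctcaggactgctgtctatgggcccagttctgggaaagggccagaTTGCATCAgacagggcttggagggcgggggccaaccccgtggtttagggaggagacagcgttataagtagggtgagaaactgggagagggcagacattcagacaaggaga
*Asns* (chr6:7693210-7693459, minus strand): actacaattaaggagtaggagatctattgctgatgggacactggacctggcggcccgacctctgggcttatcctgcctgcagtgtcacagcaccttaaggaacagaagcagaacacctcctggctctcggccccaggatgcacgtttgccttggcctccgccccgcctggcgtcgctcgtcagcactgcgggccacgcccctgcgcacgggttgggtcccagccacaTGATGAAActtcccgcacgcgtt

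In the *Hspa5* window the element begins 65 bases before the start, in *Derl3* it begins 156 bases before and reads on the opposite strand, and *Hsp90b1* holds 2 copies, 1 on each strand. The C/EBP-ATF element begins 23 bases before the start of *Asns*, 110 before that of *Nupr1* and 193 before that of *Chac1*. The 6 genes printed were all higher with tunicamycin than in the Oligo libraries, but by very different amounts: 12.4-fold for *Hspa5* and 8.69-fold for *Hsp90b1*, against 1.75-fold for *Chac1*, 3.47-fold for *Nupr1* and 1.15-fold for *Asns*. They are a selection, and other genes with the C/EBP-ATF element break this order. *Atf3* holds it and was lower with tunicamycin, at 285 to 332 against 701 to 731 CPM. *Herpud1* holds it too and was at 1147 to 1196 against 49.2 to 57.2 CPM.

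Genes of the ISR rose under both stresses, and the stresses differed in degree and in which genes were higher. Against IL-4/IL-13 alone 13 of 15 tested ISR regulators and effectors rose with tunicamycin (median log2 change 3.01) and 14 of 15 in the Oligo libraries (median 2.69). Between the stresses 9 were higher with tunicamycin, 4 were lower and 2 did not pass, with a median log2 difference of 0.55. Against the Oli_ISR libraries 11 were higher and 2 lower. *Atf4* was at 1094, 1111, 1066 and 1104 CPM with tunicamycin and at 706, 706, 699 and 706 CPM in the Oligo libraries, from 136 ± 8.76 CPM (SD, n = 4) with IL-4/IL-13 alone. The groups did not overlap, and the difference of 1.55-fold (log2 0.64 ± 0.07, adjusted *P* = 2.72e-08) was small beside the rise that each showed over the control, 3.01 and 2.38 on the log2 scale.

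Among its partners, *Ddit3* (CHOP), the factor linked to cell death in prolonged stress, was at 612, 598, 590.5 and 600.3 CPM against 216, 220.5, 240.3 and 227 CPM (2.66-fold, adjusted *P* = 4.68e-12), with the caution that 82.4% of its exon bases overlap other-strand genes. *Nupr1*, a small stress-induced chromatin protein, was at 216, 212, 216 and 205 CPM against 61.1, 61.6, 62.7 and 58.9 CPM, and *Gdf15*, a secreted stress cytokine, at 128 to 146 against 40.4 to 43.8 CPM. These 3 were 2.66-fold, 3.47-fold and 3.31-fold higher with tunicamycin, and none had overlapping groups. *Slc25a33*, a mitochondrial pyrimidine nucleotide carrier, was 2.76-fold higher. *Trib3*, a pseudokinase that restrains ATF4, rose from 3.55 CPM to 856, 848, 793 and 842 CPM with tunicamycin and 546, 531, 561 and 529 CPM in the Oligo libraries, 1.54-fold apart. *Chac1*, which degrades glutathione, was 1.75-fold higher and *Ppp1r15a* (GADD34), the phosphatase subunit that ends the response, 1.46-fold higher. The Oli_ISR libraries lay below the Oligo libraries for *Trib3* (140 to 150 CPM), *Ppp1r15a* (57.9 to 68.5 CPM) and *Ddit3* (116 to 132 CPM). For these genes tunicamycin thus stood farther above the Oli_ISR than above the Oligo libraries. The reverse order held for *Atf3*, a repressor of inflammatory genes: it was at 332, 285, 315 and 312 CPM with tunicamycin and 731, 728, 719.5 and 701 CPM in the Oligo libraries (log2 -1.21 ± 0.05, adjusted *P* = 3.02e-17), and lay below IL-4/IL-13 alone (866 ± 14.0 CPM, SD, n = 4) in both. *Ddit4*, an inhibitor of mTORC1, was also lower with tunicamycin (3.25 against 5.18 CPM). *Fgf21* was not tested, being at or near 0 in all 8 libraries.

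**Figure D3:**
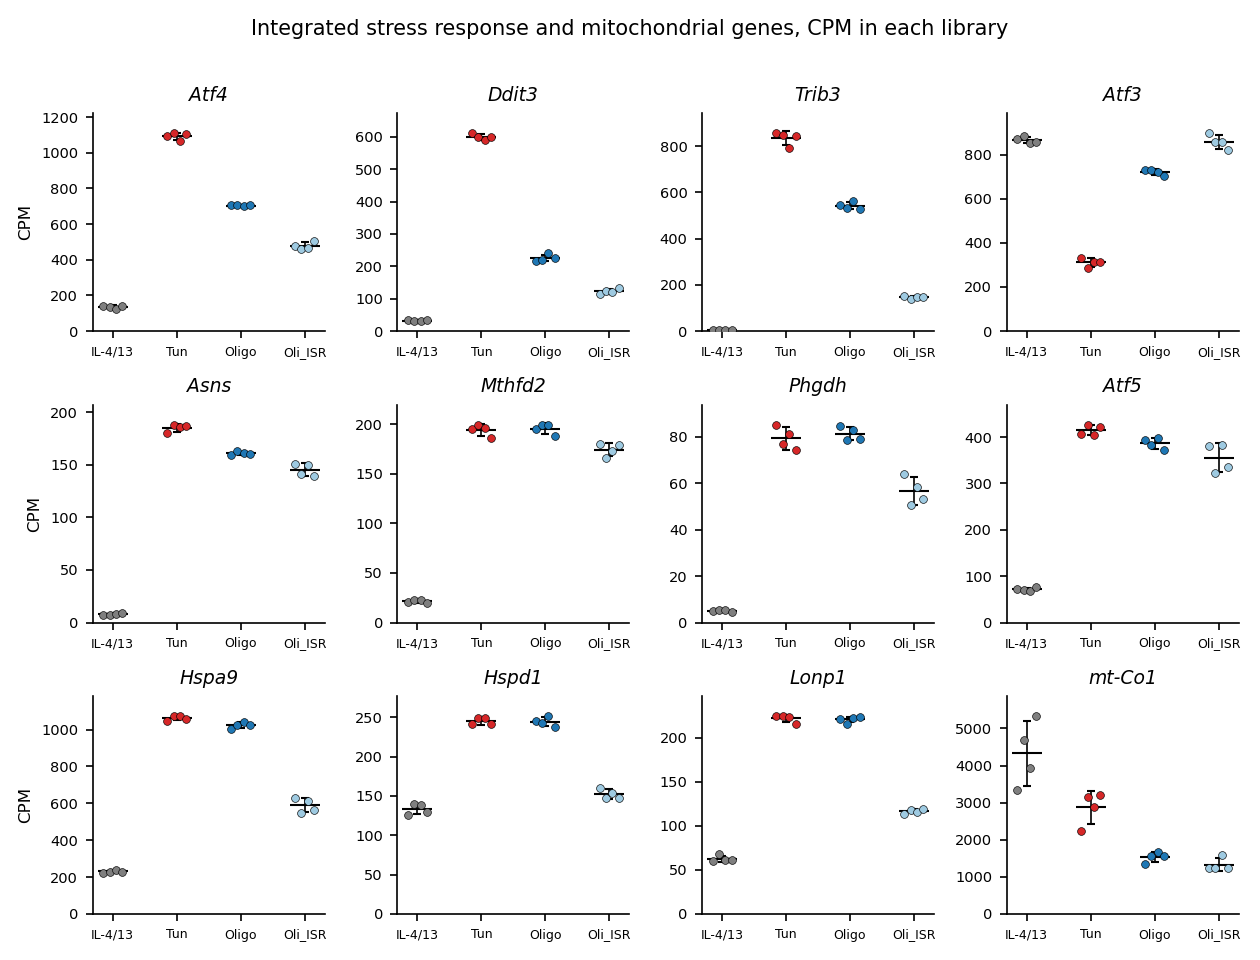
Level of 12 ISR and mitochondrial genes in each library (y axis, CPM, linear from 0) for IL-4/IL-13 alone, tunicamycin (Tun), the Oligo libraries and the Oli_ISR libraries, with 1 point per mouse, a long bar at the group mean and error bars of 1 SD (n = 4). *Mthfd2*, *Phgdh*, *Hspd1* and *Lonp1* overlap between tunicamycin and the Oligo libraries, *Ddit3* and *Trib3* are highest with tunicamycin, and *Hspa9*, *Hspd1* and *Lonp1* are lower in the Oli_ISR libraries than in the Oligo libraries.

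Some amino acid genes rose to like levels under either drug. *Mthfd2*, a mitochondrial one-carbon enzyme, was at 195, 199.6, 196 and 186 CPM with tunicamycin and at 195, 199, 199.5 and 188 CPM in the Oligo libraries, from 21.5 ± 1.41 CPM (SD, n = 4) with IL-4/IL-13 alone. The groups overlapped, and the 95% interval of the log2 difference ran from -0.15 to 0.13. *Phgdh*, the first enzyme of serine synthesis, was at 85.3, 76.7, 81.2 and 74.3 against 84.6, 78.8, 83.0 and 79.2 CPM, with an interval of -0.21 to 0.14. *Atf5* (95% interval -0.02 to 0.23), *Asns* (0.04 to 0.37) and *Cars1* (-0.24 to -0.03) were the remaining members of the ISR lists with the smallest differences among those at least 2.5-fold up under both stresses, and of these *Asns*, the asparagine synthetase, was higher with tunicamycin (adjusted *P* = 0.0271) and *Cars1*, the cysteinyl-tRNA synthetase, lower (adjusted *P* = 0.0282). Neither call was firm: that of *Asns* was lost without mouse 1 (adjusted *P* = 0.0512), and that of *Cars1* without mouse 1, 4 or 5 (adjusted *P* = 0.143, 0.102 and 0.201). The call of *Asns* was also lost with upper-quartile scaling (adjusted *P* = 0.0808), and that of *Cars1* with no filter on low counts (adjusted *P* = 0.258). *Atf5*, whose groups did not overlap, was higher with tunicamycin when only the 8 libraries were fitted (log2 0.10, adjusted *P* = 0.00969) and against the Oli_ISR libraries (log2 0.22 ± 0.06, adjusted *P* = 0.00219). Against the Oli_ISR libraries *Phgdh* was higher with tunicamycin (log2 0.49 ± 0.09, adjusted *P* = 1.53e-05) and *Mthfd2* slightly so (log2 0.15 ± 0.07, adjusted *P* = 0.0493), so the like levels were seen with the Oligo libraries and not with the Oli_ISR libraries.

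Other members of this arm separated widely. In all, 8 of 15 tested amino acid and one-carbon genes were higher with tunicamycin, 3 were lower and 4 did not pass. *Aldh1l2*, a mitochondrial folate dehydrogenase, was at 26.9, 32.6, 34.2 and 32.8 CPM against 3.71 ± 0.700 CPM (SD, n = 4) in the Oligo libraries (8.50-fold, adjusted *P* = 3.19e-13). *Pycr1*, the last enzyme of proline synthesis in mitochondria, was 5.84-fold higher, at 11.6 to 12.6 against 1.70 to 2.55 CPM. In both genes every tunicamycin library exceeded every Oligo library. *Shmt2* was 1.65-fold higher, while *Psat1* differed by log2 0.24 ± 0.11 (adjusted *P* = 0.0684), which passed with the replicate block (log2 0.25, adjusted *P* = 0.026). Among 12 amino acid transporters 9 were higher with tunicamycin and 3 lower. *Slc7a5* and *Slc3a2*, the chains of the large neutral amino acid exchanger, were 4.25-fold and 2.65-fold higher, and *Slc7a11*, the cystine importer, 1.97-fold higher. *Slc7a2*, the cationic amino acid transporter that brings arginine into IL-4-activated macrophages, went the other way: 2.98, 3.09, 3.46 and 2.85 CPM with tunicamycin against 321, 343, 307 and 335 CPM (log2 -6.72 ± 0.10, adjusted *P* = 9.00e-25). Its Oligo libraries lay near the 346 ± 19.7 CPM (SD, n = 4) of IL-4/IL-13 alone, and its tunicamycin libraries below the naive macrophages' 6.39 ± 1.29 CPM. Of 20 cytosolic tRNA synthetases 16 were higher and 4 lower with tunicamycin (median log2 difference 0.41). The 17 mitochondrial ones divided into 6 higher, 6 lower and 5 that did not pass. These last counts are near the shares of all genes tested, 31.4% higher and 32.1% lower, and set the mitochondrial list little apart. The count of lower mitochondrial members was 2 without mouse 1 and 3 without mouse 4 or mouse 5, and that of lower cytosolic members 2 without mouse 1.

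Among 13 genes of the eIF2α kinases, eIF2α, eIF2B and their regulators, 6 were higher, 4 lower and 3 did not pass. Over all genes tested 31.4% were higher and 32.1% lower. *Eif2ak1* (HRI) was at 102 against 94.7 CPM (log2 0.11 ± 0.04, adjusted *P* = 0.0228). This call was lost without mouse 2 (adjusted *P* = 0.0657), without mouse 4 (adjusted *P* = 0.0513) or with upper-quartile scaling (adjusted *P* = 0.145). The sign of *Eif2ak1* turned against the Oli_ISR libraries (log2 -0.14, adjusted *P* = 0.00431). *Dele1*, the messenger that carries the mitochondrial signal to HRI, was 1.18-fold higher with tunicamycin, and *Oma1*, the protease that cleaves it, lay at 21.1 and 20.8 CPM (95% interval of the log2 difference -0.11 to 0.15). *Eif2ak2* (PKR), an interferon-induced kinase, was 2.41-fold lower with tunicamycin.

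The mitochondrial chaperones and proteases, which answer misfolding inside mitochondria, were little apart between the stresses. Of 20 members 5 were higher with tunicamycin, 4 were lower and 11 did not pass, none reached 2.5-fold, and the median log2 difference was 0.01. For 13 of the 20 the whole 95% interval lay within 1.25-fold. *Hspa9* (mortalin) was at 1047, 1074, 1073 and 1057 CPM with tunicamycin and 1003, 1024, 1043 and 1022 CPM in the Oligo libraries, both far above the 230.4 ± 7.19 CPM (SD, n = 4) of IL-4/IL-13 alone. *Hspd1* (HSP60) was at 241, 249, 249 and 242 against 245, 242, 252 and 238 CPM and *Lonp1*, the matrix protease, at 224, 225, 223 and 216 against 221, 216, 223 and 224 CPM. The intervals of the log2 difference were -0.04 to 0.15 for *Hspa9*, -0.08 to 0.09 for *Hspd1* and -0.08 to 0.10 for *Lonp1*. The Oli_ISR libraries lay lower, at 589 ± 37.6 CPM for *Hspa9* and 117 ± 2.48 CPM for *Lonp1* (SD, n = 4), and against them 12 of the 20 members were higher with tunicamycin and 5 lower. How close the stresses lie on this list therefore depends on which oligomycin libraries are used. The largest differences from the Oligo libraries were those of *Parl*, a rhomboid protease of the inner membrane (1.40-fold higher, adjusted *P* = 7.37e-10), and *Trap1*, the mitochondrial HSP90 (1.23-fold lower, adjusted *P* = 3.64e-07).

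The transcripts of mitochondrial DNA did separate the stresses. *mt-Co1*, a core subunit of complex IV, was at 2227, 3165, 2878 and 3214 CPM with tunicamycin and at 1348, 1555, 1673 and 1553 CPM in the Oligo libraries. The groups did not overlap, and both lay below IL-4/IL-13 alone at 4327 ± 873 CPM (SD, n = 4). *mt-Cytb* and *mt-Nd1* were 2.01-fold and 1.82-fold higher with tunicamycin (adjusted *P* = 1.39e-05 and 4.12e-05). Of the 7 mitochondrial mRNAs tested 6 were higher, and *mt-Nd2* did not pass (217 against 247 CPM, adjusted *P* = 0.311). All 7 were lower than with IL-4/IL-13 alone under either stress, with median log2 changes of -1.09 and -1.63. The 13 mRNAs together took 0.392 to 0.554% of gene counts with tunicamycin (mean 0.493% ± 0.0740 SD, n = 4), 0.250 to 0.296% in the Oligo libraries (mean 0.277% ± 0.0196) and 0.688 to 1.08% with IL-4/IL-13 alone. The difference of 0.216 percentage points had a two-sided exact permutation *P* = 0.0286, the smallest that 4 against 4 libraries can give. The share was higher with tunicamycin in all 4 mice, and permuted within the mice the exact *P* was 0.125, the smallest that 4 pairs can give. The other 6 mitochondrial mRNAs, *mt-Atp6* and *mt-Co2* among them, were listed at or near 0 in these libraries and were not tested. The share given for the 13 is thus in effect that of the 7 tested. Such counts alone do not show that the other RNAs were absent from the cells.

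Nuclear genes of respiration moved little between the stresses. Complex I gave 5 higher, 6 lower and 25 not past the test of 36 subunits, complexes II to IV 4, 8 and 12 of 24, and the ATP synthase, the target of oligomycin, 1, 3 and 14 of 18. Their median log2 differences were -0.01, -0.09 and -0.05, against -0.02 for all genes. The lower counts moved with the libraries used: against the Oli_ISR libraries 13 complex I, 19 complex II to IV and 12 ATP synthase subunits were lower with tunicamycin, and without mouse 2 the complex I and ATP synthase counts against the Oligo libraries were 10 and 5. All 3 lists lay mostly below IL-4/IL-13 alone under each stress. For the ATP synthase 16 of 18 fell with tunicamycin (median -0.93) and 17 of 18 in the Oligo libraries (median -0.74). Of 22 genes for mitochondrial DNA expression 5 were higher with tunicamycin, 5 lower and 12 did not pass, with *Tfam*, its packaging factor, at 29.5 against 27.9 CPM (95% interval of the log2 difference -0.03 to 0.19). *Tfam* was higher with tunicamycin without mouse 5 (log2 0.16, adjusted *P* = 0.0227) and against the Oli_ISR libraries (log2 0.22 ± 0.05, adjusted *P* = 5.85e-04). Of 78 mitochondrial ribosomal proteins 21 were higher, 15 lower and 42 did not pass, and the lower count was 6 without mouse 1 and 7 without mouse 5. Against the Oli_ISR libraries 11 of the genes for mitochondrial DNA expression and 33 of the mitochondrial ribosomal proteins were higher with tunicamycin.

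**Figure D4:**
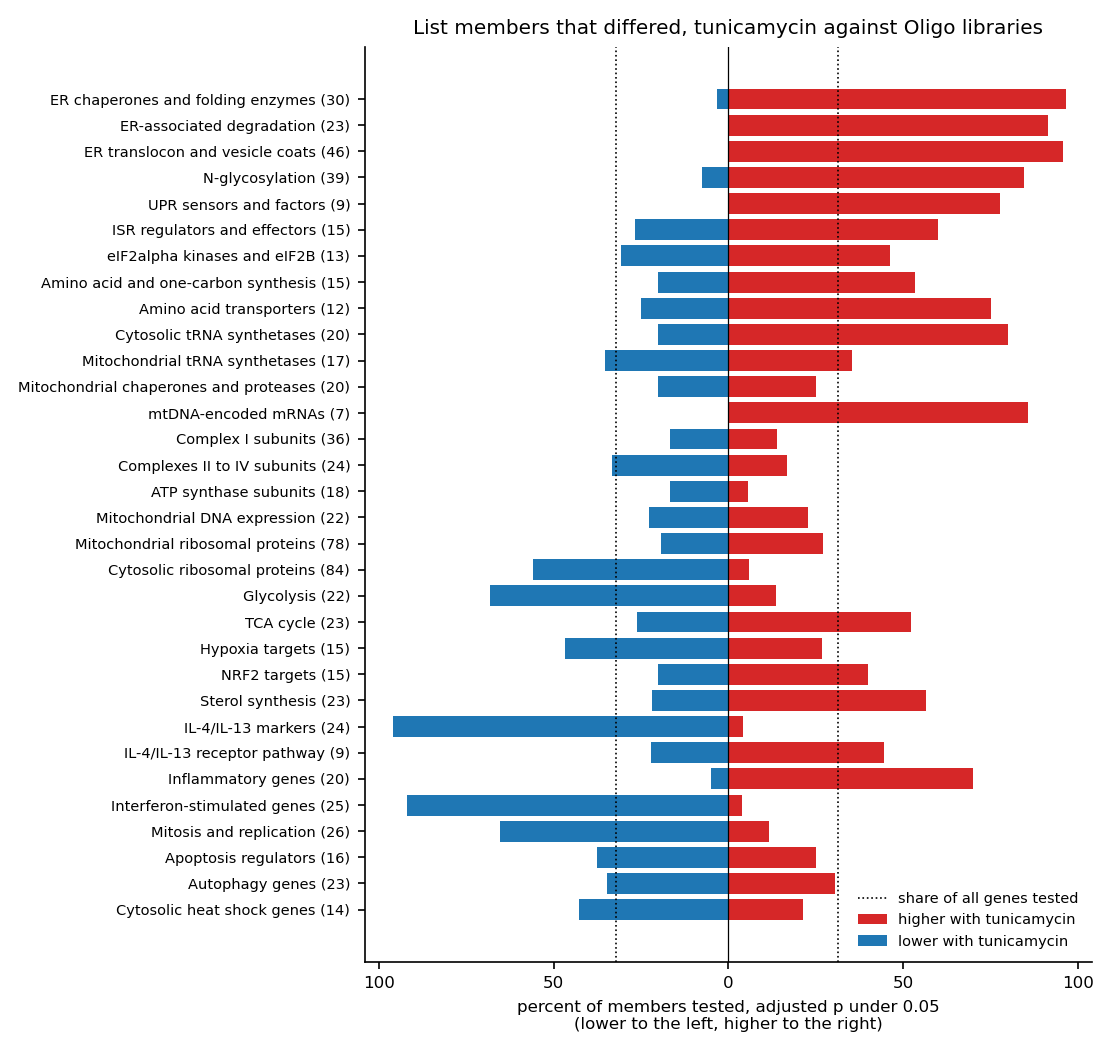
Share of the tested members of each gene list (x axis, percent, number tested in parentheses) that was lower (blue, to the left) or higher (red, to the right) with tunicamycin than in the Oligo libraries at an adjusted *P* under 0.05, with dotted lines at the shares of all genes tested (32.1% and 31.4%). The ER lists reach far beyond the line on the higher side, the IL-4/IL-13 markers and interferon-stimulated genes on the lower side, and the respiratory lists stay near or inside both lines.

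The IL-4/IL-13 program separated the stresses in the other direction. Of 24 markers of this activation 23 were lower with tunicamycin than in the Oligo libraries, 19 of them by at least 2.5-fold, and 1 was higher, with a median log2 difference of -4.05. The median was -3.57 with other values for the 3 genes that had at most 3 counts over the tunicamycin libraries. For this *Chil4* and *Ccl17*, with 0 counts, were set at their bound, and *Retnla*, with 1 count, at the ratio of its counts. *Retnla* encodes the secreted protein RELMα and lies at chr16:48662895-48664824 of GRCm39. It was at 0, 0.0476, 0 and 0 CPM with tunicamycin, at 57.3, 49.3, 58.4 and 33.4 CPM in the Oligo libraries and at 7754 ± 406 CPM (SD, n = 4) with IL-4/IL-13 alone. With 1 count over the tunicamycin libraries, the ratio of 3858 has a 95% counting interval of 692 to 152417. Its level in the Oligo libraries was itself far below the control (log2 -7.29 ± 0.34, adjusted *P* = 1.85e-15). The Oli_ISR libraries held 161 to 388 CPM of it.

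*Arg1*, the arginase, was at 0.154, 0.238, 0 and 0.0509 CPM with tunicamycin and at 179, 164, 140.4 and 109.7 CPM in the Oligo libraries (455 ± 33.2 CPM with IL-4/IL-13 alone, SD, n = 4). *Chil3*, a secreted chitinase-like protein, was at 1.59, 1.81, 2.67 and 0.866 against 1499.8, 1434, 1475 and 1061 CPM. Naive macrophages held 0.0513 and 10.1 CPM, so *Arg1* was near 0 in both and *Chil3* lay below the naive mean with tunicamycin, while the Oligo libraries kept them 1213-fold and 795-fold above tunicamycin. *Egr2* and *Irf4*, transcription factors of this program, were 30.1-fold and 16.1-fold lower with tunicamycin, at 2.86 to 4.16 against 101 to 107 CPM and 1.13 to 2.04 against 24.6 to 26.4 CPM. *Mrc1*, the mannose receptor, was at 75.1, 75.4, 85.9 and 76.4 against 646, 709, 764 and 619 CPM. For *Mrc1* the Oligo libraries did not pass the test against the 634 ± 74.0 CPM (SD, n = 4) of IL-4/IL-13 alone (log2 0.11, adjusted *P* = 0.274). *Klf4*, a factor downstream of STAT6, was 2.22-fold lower with tunicamycin but in the Oligo libraries lay above the control (342 against 189 CPM). The Oli_ISR libraries did not lie above the control in this way, at 165 to 198 CPM of *Klf4*. *Flt1*, a VEGF receptor, was 329-fold lower with tunicamycin. *Chil4* and *Ccl17* had no count with tunicamycin and were at least 75.0-fold and at least 3.82-fold lower. The 1 marker higher with tunicamycin was *Myc*, at 49.0 against 33.2 CPM (adjusted *P* = 1.22e-05). Against the Oli_ISR libraries 20 markers were lower and 3 higher.

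Genes of the receptor pathway were divided. Of 9 tested genes of the IL-4/IL-13 receptor pathway 4 were higher with tunicamycin, 2 lower and 3 did not pass, and 4 were lower against the Oli_ISR libraries. *Il13ra1*, a chain of the receptor for both cytokines, was at 44.6, 47.3, 48.5 and 40.8 CPM with tunicamycin and 12.3, 13.0, 13.8 and 14.3 CPM in the Oligo libraries (3.40-fold higher, adjusted *P* = 1.41e-15). *Il4ra*, the shared receptor chain, was 1.55-fold higher. In both genes the tunicamycin libraries exceeded every Oligo library. *Stat6* was 1.35-fold lower and *Irs2*, an adaptor of the receptor, 4.48-fold lower. These are mRNA levels, and neither receptor protein nor STAT6 phosphorylation was measured in these libraries.

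**Figure D5:**
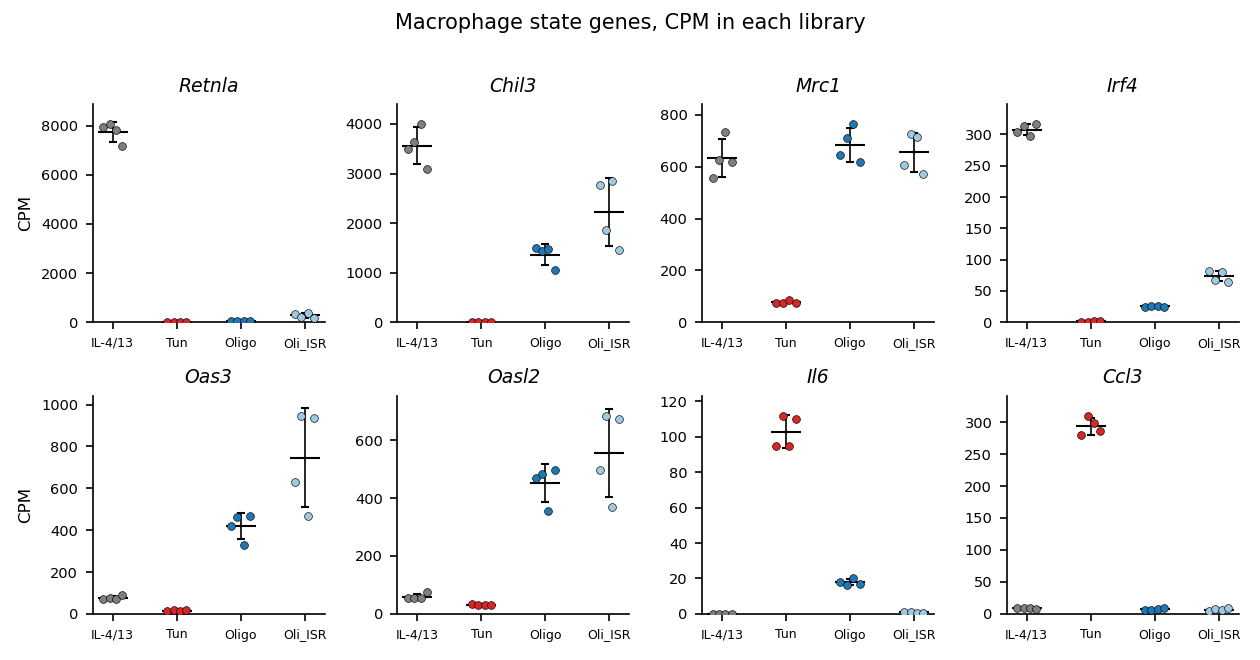
Level of 8 macrophage state genes in each library (y axis, CPM, linear from 0) for IL-4/IL-13 alone, tunicamycin (Tun), the Oligo libraries and the Oli_ISR libraries, with 1 point per mouse, a long bar at the group mean and error bars of 1 SD (n = 4). *Chil3*, *Mrc1* and *Irf4* are lowest with tunicamycin, as are *Oas3* and *Oasl2*, whereas *Il6* and *Ccl3* are highest there.

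Inflammatory genes were higher with tunicamycin. Of 20 tested members 14 were higher than in the Oligo libraries, 11 by at least 2.5-fold, 1 was lower and 5 did not pass, with a median log2 difference of 2.15. *Il6* was at 94.6, 112, 94.7 and 109.9 CPM with tunicamycin and at 18.3, 16.5, 20.4 and 16.8 CPM in the Oligo libraries, against 0.0714 CPM with IL-4/IL-13 alone. It thus rose under both stresses and was 5.72-fold higher with tunicamycin (adjusted *P* = 1.42e-17), and the Oli_ISR libraries held 0.809 ± 0.109 CPM (SD, n = 4). *Ccl3*, a macrophage chemokine, was at 279.7, 309.9, 298 and 286 against 6.53, 6.87, 7.07 and 8.54 CPM (40.5-fold higher). Unlike *Il6*, *Ccl3* did not pass the test between the Oligo libraries and IL-4/IL-13 alone (adjusted *P* = 0.106). *Cxcl2*, which draws neutrophils, was 12.1-fold higher with tunicamycin. *Il1b* stayed low, at 0.822, 1.29, 0.964 and 1.53 CPM against 0.464 ± 0.377 CPM (SD, n = 4), with overlapping groups (adjusted *P* = 0.00398). The member lower with tunicamycin was *Ccl7* (7.27 against 17.9 CPM, adjusted *P* = 8.86e-07), and its sign turned against the Oli_ISR libraries (log2 0.55, adjusted *P* = 0.0169).

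Interferon-stimulated genes took the opposite order. Of 25 genes 23 were lower with tunicamycin, 20 by at least 2.5-fold, 1 was higher and 1 did not pass. *Oas3*, a sensor enzyme of double-stranded RNA, was at 16.1, 17.4, 14.6 and 16.9 CPM with tunicamycin and at 419, 463, 331 and 468 CPM in the Oligo libraries (25.8-fold lower, adjusted *P* = 1.56e-15). IL-4/IL-13 alone held 76.4 ± 8.63 CPM and naive macrophages a mean of 408 CPM (n = 4 each), so the Oligo libraries lay near the naive level and tunicamycin below both. *Oasl2*, of the same family, was 14.1-fold lower. The 1 higher gene was *Cxcl10*, a chemokine also in the inflammatory list (18.6 against 2.87 CPM, adjusted *P* = 1.77e-08). Without it, the other 24 summed to 700.2 to 729 CPM with tunicamycin and 672 to 787 CPM with IL-4/IL-13 alone, against 2831 to 3980 CPM in the Oligo libraries and 2988 to 6737 CPM in the Oli_ISR libraries. Against IL-4/IL-13 alone all 25 rose in the Oligo libraries (median log2 change 2.67), and with tunicamycin 9 rose, 5 fell and 11 did not pass (median 0.17).

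The largest single differences fell outside these lists in the main. Besides *Derl3*, the 10 genes highest with tunicamycin included *Fpr1* and *Fpr2*, receptors for formylated peptides. *Fpr1* was at 58.2, 90.2, 71.1 and 74.7 CPM with tunicamycin and 0 to 0.188 CPM in the Oligo libraries (0.309 CPM with IL-4/IL-13 alone and 8.12 in naive macrophages). *Lcn2*, the siderophore-binding lipocalin, was at 732, 933, 773 and 806 against 1.03 to 1.73 CPM. Both genes were thus near 0 in every Oligo library and well read with tunicamycin (919-fold and 619.9-fold apart, adjusted *P* = 2.51e-20 and 5.62e-23). *Siglece*, an inhibitory sialic acid receptor, was at 254, 295, 289 and 290.4 against 0.284, 0.753, 0.419 and 0.450 CPM, with 39.3% of its exon bases shared with a gene on the other strand. *Cd300e* (57.6 against 0.233 CPM), an activating receptor of myeloid cells, had a naive level of 45.0 CPM. The remaining genes were *Slc13a3*, *Zfp811*, *Plppr4* and the long noncoding RNA *1700003M07Rik*.

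Among the 10 lowest with tunicamycin, beside *Retnla*, *Arg1*, *Chil3* and *Flt1*, *Kcnd3*, a potassium channel gene, had no count in any tunicamycin library and 19.1, 18.7, 19.3 and 17.1 CPM in the Oligo libraries, at least 480.5-fold lower, and *Galnt9*, a glycosyltransferase gene, was at least 179-fold lower. *Rnase2a*, a secreted ribonuclease, was at 0.154, 0.0476, 0.340 and 0.102 against 63.6, 67.8, 75.6 and 50.5 CPM and had 547 ± 48.5 CPM (SD, n = 4) with IL-4/IL-13 alone and 0 in naive macrophages. It is thus another gene of the cytokine-treated state that the Oligo libraries kept in part. *Ksr2*, *Cldn11* and *Bex1* made up the rest, with 2, 1 and 2 counts over the tunicamycin libraries and counting intervals of the ratio of 62.2 to 1872, 107 to 23700.5 and 54.6 to 1644.

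Some genes moved in opposite directions from IL-4/IL-13 alone by at least 2.5-fold each way. Of the 13679 genes tested, 23 rose with tunicamycin and fell in the Oligo libraries and 21 did the reverse. Each change, and the difference between the stresses, was at least 2.5-fold at an adjusted *P* under 0.05. These genes also had a mean of at least 50 counts, the same direction between the stresses in all 4 mice and no other gene over most of their exons. Smaller opposite changes, such as that of *Hsp90b1*, are not in these counts. *Derl3*, *Fpr1*, *Lcn2*, *Fpr2* and *Slc13a3* had the largest differences of the first kind. *Slc13a3*, a sodium-coupled dicarboxylate transporter, was at 253, 349, 329.5 and 283 CPM with tunicamycin, 1.04, 1.18, 1.31 and 1.05 CPM in the Oligo libraries and 12.5 ± 1.21 CPM (SD, n = 4) with IL-4/IL-13 alone. *Fabp7*, a fatty acid-binding protein gene, showed the reverse, at 0.205, 0.286, 0.340 and 0.509 CPM, 18.9, 20.4, 19.2 and 22.3 CPM and 5.25 ± 1.47 CPM. Tunicamycin and the Oligo libraries stood on opposite sides of the control in all 4 mice for both genes. *Cldn11*, *Bex1*, *Cspg4* and *Id1* were the others of the 5 largest of the second kind. *Cspg4* was 37.1-fold lower with tunicamycin than in the Oligo libraries but had 1.79 ± 0.464 CPM in the Oli_ISR libraries, near the 1.64 ± 1.19 CPM (SD, n = 4) of IL-4/IL-13 alone.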

How the data were processed

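RNA-seq libraries (Watchmaker mRNA kit) of 24 macrophage cultures, 6 treatments of 4 mice, were analysed, and 8 of them form the comparison. The authors deposited whole-number read counts per gene, and the submitters' processing notes name Cutadapt 1.8, STAR 2.7 with the mouse genome GRCm39, HTSeq 0.9.1 and RSEM 1.2.31. The strand setting is not given in the sources used here. The deposited TPM table was not used here. No count column lacked a sample, and 12.7 to 15.2% of reads per library fell in totals that name no gene, which stayed out of library sizes and tests.

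Counts were fitted in 1 edgeR 4.0.16 quasi-likelihood model (R 4.3.3, limma 3.58.1) over all 24 libraries with 1 coefficient per group, TMM scaling and filterByExpr, which kept 13679 genes. *P* values were adjusted by Benjamini-Hochberg over all genes tested. Genes were called at an adjusted *P* under 0.05 and at least 2.5-fold, and members of lists were counted at an adjusted *P* under 0.05. CPM use TMM-scaled library sizes. Standard errors and 95% intervals come from the fitted difference and its F statistic. A group with 0 counts was set at 3 counts over the group. Counting intervals cover counting error only. The study stated a DESeq2 test, which was run as an alternative (DESeq2 1.42.0), as were other scalings, filters, fold thresholds, the mouse as a replicate block and each mouse left out. On simulated counts of 13359 genes, the main comparison recovered 98% of 2.5-fold and 100% of 4-fold changes at an adjusted *P* under 0.05 alone. The simulation changed 100 genes at each fold, none with a low expected count, whereas 63.5% of genes passed in the data. Recovery with the 2.5-fold minimum, at low counts or among so many changed genes was not tested.

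Libraries of the same mouse deviated from their group means together: the 4 same-mouse correlations between tunicamycin and Oligo libraries were 0.117 to 0.380, and none of the 12 between different mice was over 0.1. The replicates are separate mice, and every pair of libraries within a group differed by more than sampling noise (chi-square per gene 2.12 to 5.43).

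The members and gene lists were chosen with earlier results of these data known. Named genes are a set of signature genes, the 10 largest differences in each direction (a mean of at least 50 counts, the same direction in all 4 mice, no other gene over most of the exons), the 5 largest in each opposite pattern, the 2 largest per list and direction, and the 5 ISR genes least different among those raised by both stresses. Cell type markers, genes that stood alone against their list and genes with 0 counts in a group were named after their values were seen. *Alg10b* is not in the table. Some genes that these rules name are not reported here.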

Additional observations from a re-analysis of the deposited data

Results flagged for a closer look

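Of 350 groups of 4 libraries, those of genes with no spread or with at most 3 counts in each library were skipped. In 13 of the groups left, 1 library lay farther from the others than Dixon's 95% critical value allows, and chance alone gives about 1 in 20 of the groups tested. The values are CPM, and the other libraries of the group are given as a range. In the tunicamycin library of mouse 2, *Herpud1* was at 1196 against 1147 to 1154. In the Oligo library of mouse 4, *Atf4* was at 699 against 706 to 706, *Ndufa9* was at 69.4 against 65.1 to 65.6, *Mrpl30* was at 40.2 against 37.1 to 37.5 and *Cars1* was at 121 against 113 to 114. In the tunicamycin library of mouse 5, *Lonp1* was at 216 against 223 to 225. In the Oligo library of mouse 5, *Chil3* was at 1061 against 1434 to 1499.8. In the tunicamycin library of mouse 4, *Mrc1* was at 85.9 against 75.1 to 76.4, *Pfkfb3* was at 93.8 against 99.4 to 100.2, *Aldoc* was at 4.14 against 3.52 to 3.59 and *Dnajb4* was at 52.5 against 51.5 to 51.6. In the tunicamycin library of mouse 1, *Siglece* was at 254 against 289 to 295. In the Oligo library of mouse 1, *Parl* was at 72.9 against 76.6 to 77.4.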

How the results depend on the processing

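Counts of genes at least 2.5-fold apart depended most on the filter. With at least 10 counts required in each of the 8 libraries, which removes genes at 0 under 1 stress, 511 genes were higher and 607 lower with tunicamycin than in the Oligo libraries, 737 and 1060 with tunicamycin against IL-4/IL-13 alone, and 392 and 691 in the Oligo libraries against IL-4/IL-13 alone. Without a minimum fold the counts were 4292 and 4390, 5287 and 5150, and 4651 and 4400. At 2-fold, 1042 genes were higher in the Oligo libraries than with IL-4/IL-13 alone. DESeq2 gave 773 higher and 1179 lower genes between the stresses, and leaving out 1 mouse 762 to 817 and 1116 to 1190.

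Over all 24 libraries, the mouse as a replicate block gave 767 higher and 1206 lower genes, and among 169 named genes it changed the call of *Ern1* and *Psat1*, and no other; with only the 8 libraries fitted, *Atf5* passed too, with the block (adjusted *P* = 0.00503) and without it. Of the 169, 148 were tested in all 12 alternatives, and 123 of these kept their call and direction in each. The other 21 were left out where at least 10 counts were required in each library. The difference of 0.216 percentage points in the share of mitochondrial mRNAs had an exact *P* of 0.125 within the mice, a test added after the data were seen that cannot reach 0.05. With the Oli_ISR in place of the Oligo libraries, 12 mitochondrial chaperones and proteases were higher with tunicamycin, and 6 genes turned sign: *Ern1* (0.53), *Phgdh* (0.49), *Mthfd2* (0.15), *Eif2ak1* (-0.14), *Ccl7* (0.55) and *Bmf* (-0.47), as log2 differences. The cause was not tested. Lower cytosolic ribosomal protein genes numbered 28 to 57 over the left-out mice, and 65 with only the 8 libraries fitted. The share of ambiguous reads, 0.0122 percentage points lower with tunicamycin, was 0.0698 points higher against the Oli_ISR libraries and lay between -0.0245 and 0.0102 points with 1 mouse left out, and the share of reads not uniquely aligned was 0.0524 points higher against the Oli_ISR libraries. These depths cannot show differences of genes near 0 counts in both groups.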

Other observations

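Genes of energy metabolism outside the respiratory chain also differed between the stresses, some of them widely. Over all genes tested 31.4% were higher and 32.1% lower with tunicamycin, and the counts below stand beside these shares. Of 22 glycolysis genes 15 were lower with tunicamycin than in the Oligo libraries, 3 were higher and 4 did not pass the test, with a median log2 difference of -0.23. *Ldha*, lactate dehydrogenase A, was at 275, 279.8, 285 and 279 CPM with tunicamycin and at 1016, 992, 997 and 890.1 CPM in the Oligo libraries, on either side of IL-4/IL-13 alone at 667 ± 28.1 CPM (SD, n = 4). No library of the groups overlapped, and the difference was 3.48-fold (adjusted *P* = 7.29e-18). Of 23 TCA cycle genes 12 were higher, 6 lower and 5 did not pass, with *Idh2*, the mitochondrial NADP-dependent isocitrate dehydrogenase, 2.37-fold higher with tunicamycin. The 15 hypoxia targets divided into 4 higher, 7 lower and 4 not past the test, and into 7 higher and 6 lower against the Oli_ISR libraries. *Ndrg1* was 5.70-fold higher, whereas *Vegfa*, the angiogenic growth factor, was 2.80-fold lower and *Bhlhe40*, a basic helix-loop-helix transcription factor, 13.3-fold lower. Among 23 sterol synthesis genes 13 were higher and 5 lower with tunicamycin, but 7 were higher and 11 lower against the Oli_ISR libraries. *Mvd*, a mevalonate pathway enzyme, was 4.44-fold higher with tunicamycin.

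Growth genes were lower with tunicamycin. Of 26 mitosis and replication genes 17 were lower than in the Oligo libraries, 3 higher and 6 did not pass, and both stresses had lowered most of them from IL-4/IL-13 alone (25 and 26 of 26). *Pcna*, the replication clamp, was at 90.1, 90.5, 94.4 and 95.9 CPM with tunicamycin against 232, 239, 206 and 227 CPM in the Oligo libraries, and *Kif11*, a spindle motor, was 4.46-fold lower. Of 84 cytosolic ribosomal protein genes 47 were lower, 5 higher and 32 did not pass, by small amounts (median log2 difference -0.24). Over the left-out mice the count of lower genes ranged from 28 without mouse 1 to 57 without mouse 2. It was 65 when only the 8 libraries were fitted, and 66 with the mouse as a replicate block as well. Among 16 apoptosis regulators 4 were higher and 6 lower. *Bcl2*, which blocks cell death, was at 8.99, 9.66, 9.81 and 9.93 CPM with tunicamycin against 34.1, 33.7, 36.4 and 30.0 CPM, and its tunicamycin level did not pass the test against IL-4/IL-13 alone (adjusted *P* = 0.936). Of 23 autophagy genes 7 were higher and 8 lower, and of 14 cytosolic heat shock genes 3 and 6. Over all genes tested 31.4% were higher and 32.1% lower, so these counts set the apoptosis and autophagy lists little apart. Of 15 NRF2 targets 6 were higher and 3 lower, but 10 were higher when only the 8 libraries were fitted, and 10 were higher and 4 lower against the Oli_ISR libraries.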
